A study of Homo sapiens with 12 samples.

Results

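Transcripts of 51 mitotic genes were followed in 12 RNA sequencing libraries from cell lines of squamous carcinomas of the head and neck (HNSCC). The genes were taken from a list written by symbol, and each of the 51 matched 1 of the 58051 Ensembl genes in the count files. They encode the proteins that take a cell through division: CDK1 with its cyclins and the phosphatases and kinases that switch it on, the spindle checkpoint and the anaphase-promoting machinery it restrains, the chromosomal passenger complex, kinetochore proteins that bind chromosomes to microtubules, motor proteins, and the factors that build the midzone and cut the cell apart. In cycling cells most of these transcripts are made late, from S phase into G2 and M, and are repressed in G1, so that in bulk RNA they serve as a readout of proliferation. In bulk RNA, fewer cells in or near mitosis and less of these transcripts per cell cannot be told apart.

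FaDu cells come from a hypopharyngeal and Cal27 cells from a tongue squamous cell carcinoma, both labelled as wild-type genotype. Each line was analysed as the treatment-naive parental population, as cells selected for resistance to afatinib (AfaR), an irreversible inhibitor of the ERBB receptor family, and as cells selected for resistance to erlotinib (ErlR), an inhibitor of the epidermal growth factor receptor, with 2 biological replicates in each of the 6 groups. By the study's methods the resistant cells were made by stepwise dose escalation, kept under drug and taken off it shortly before experiments, and each group is 1 selected population, so that the replicates measure the spread within a population and not between independent selections. All libraries carry the same batch label and were made from poly(A) RNA with ERCC spike-in transcripts.

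Depth lay between 16334937 and 23399259 counts on genes, and the least abundant of the 51 genes in any library still had 156 counts. FaDu parental and FaDu AfaR libraries had 20156109 to 23399259 counts and 5.64 to 5.82% ERCC reads. In the other groups these were 16334937 to 16689855 counts and 3.86 to 4.60%. In FaDu ErlR against FaDu parental cells, in FaDu ErlR against FaDu AfaR and between the parental lines, this difference cannot be told apart from the groups compared. The same holds where the ErlR change is compared between the lines, which includes FaDu ErlR against FaDu parental cells. Squamous epithelial markers were present in every group, with 10 of 10 genes at 1 CPM or more (counts scaled to 1000000 per library) in at least 1 library. In Cal27 AfaR, KRT14 had 0.917 and 1.62 CPM and PKP1 1.13 and 0.754 CPM, against 272 and 112 and 16.3 and 11.1 CPM in Cal27 parental cells. The summed level of the squamous markers was between 810 and 935 CPM in Cal27 AfaR, against 3651 to 4545 CPM in Cal27 parental cells and 5141 to 12534 CPM over the FaDu groups. Summed fibroblast and endothelial markers were 320 and 321 CPM in the Cal27 AfaR libraries, 61.7 to 74.3 CPM in Cal27 parental cells and 7.71 to 27.3 CPM in the other groups, whereas blood cell markers stayed between 10.7 and 18.8 CPM throughout, with CD3E, HBB and HBA1 at or near 0. The part of these marker differences in the results for Cal27 AfaR was not tested.

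Many late cell cycle promoters carry a CCAAT box, bound by NF-Y, and a cell cycle genes homology region (CHR), bound by the DREAM and MuvB complexes. RefSeq promoters on GRCh38.p14, from 250 bases before to 50 bases after a start, were found for 45 of the 51 genes, which have 57 promoters among them. BIRC5, TTK, FOXM1, UBE2C, BUB3 and RACGAP1 had no entry. Both strands were searched for the CCAAT word, which reads ATTGG on the other strand, and for the CHR as TTTGAA, which reads TTCAAA there. These words can share at most 1 base. A CCAAT word was in 71.9% of the genes' promoters and in 34.6% of all 35116 promoters, a CHR word in 64.9% against 15.2%, and both in 52.6% against 5.9%. The 120 bases before the start are shown, written 5′ to 3′ on the gene's strand with the words in capitals. PLK1, CENPA and ESPL1 were chosen as among the clearest rises in Cal27 ErlR, and KIF14 as lower in both FaDu models. CDC25B was chosen as lower in Cal27 ErlR, where the other genes called were higher. The stretches lie at chr16:23678769-23678888 (plus strand, PLK1), chr2:26785936-26786055 (plus, CENPA), chr12:53268179-53268298 (plus, ESPL1), chr1:200620752-200620871 (minus, KIF14) and chr20:3796190-3796309 (plus, CDC25B, 1 of its 4 promoters).
PLK1: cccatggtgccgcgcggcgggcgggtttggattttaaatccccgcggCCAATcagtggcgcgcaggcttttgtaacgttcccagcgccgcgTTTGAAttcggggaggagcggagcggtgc
CENPA: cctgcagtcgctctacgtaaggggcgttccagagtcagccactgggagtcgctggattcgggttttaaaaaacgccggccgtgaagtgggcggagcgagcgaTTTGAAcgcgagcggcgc
ESPL1: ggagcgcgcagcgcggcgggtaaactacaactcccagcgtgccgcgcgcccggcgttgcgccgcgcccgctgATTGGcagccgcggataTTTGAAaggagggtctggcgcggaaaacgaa
KIF14: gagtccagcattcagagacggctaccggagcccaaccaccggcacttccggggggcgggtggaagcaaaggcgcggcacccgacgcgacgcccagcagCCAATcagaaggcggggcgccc
CDC25B: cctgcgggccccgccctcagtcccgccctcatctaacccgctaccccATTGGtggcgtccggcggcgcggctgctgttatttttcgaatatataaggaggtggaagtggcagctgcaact

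PLK1 and ESPL1 show the paired layout, with the CCAAT word starting at position -73 and -48 and the CHR word at -29 and -31 relative to the start. CENPA has its CHR word at -18, with its CCAAT words farther upstream than the bases shown. In KIF14 the CCAAT word lies at -22 and the CHR word just past the start, outside the bases shown. None of the 4 promoters of CDC25B held the CHR word in the 300-base window, which says only that these letters are not there. The word was also absent for CCNB1, BUB1, CENPE, CKAP2 and NEK2, which were called higher in Cal27 ErlR. It was absent too for PTTG1, AURKB, KIF20A, KIF2C and TACC3, which were not called there.

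The 51 genes were well expressed, with a median of 109 CPM over the 12 libraries, from 12.7 CPM for SKA1 to 473 CPM for TOP2A, against a median of 15.9 CPM over the 16240 genes tested. Per kilobase of annotated exon length, CDC20, the activator of the anaphase-promoting complex, was the most abundant of them in 5 of the 6 groups. CDC20 had 298 CPM per kilobase in FaDu parental and 130 in Cal27 parental cells. In Cal27 ErlR, UBE2C, the ubiquitin-conjugating enzyme that works with that complex, ranked above it with 186 CPM per kilobase against 149. SKA1 and CDC25C were the least abundant by this measure in FaDu parental cells, at 3.88 and 5.17 CPM per kilobase.

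Summed over the 51 genes, FaDu parental cells had 9269 and 8865 CPM, FaDu AfaR 7423 and 8081 CPM, and FaDu ErlR 7521 and 8188 CPM. Cal27 parental cells had 5806 and 4954 CPM, Cal27 AfaR 5641 and 7071 CPM, and Cal27 ErlR 7978 and 7429 CPM. The FaDu parental libraries lay above the other 10, and the Cal27 ErlR libraries lay above the Cal27 parental ones, while the Cal27 AfaR libraries lay on either side of a Cal27 parental library. The genes also moved together between replicates of 1 group. In Cal27 AfaR, 50 of the 51 were higher in replicate 2 than in replicate 1, by a median of 0.34 on the log2 scale, and in Cal27 parental cells 45 were lower in replicate 2, with a median of -0.22. The median difference between replicates was between -0.07 and 0.14 in the other 4 groups. Cal27 parental cells had the lowest mean of the 6 groups for 35 of the genes, and FaDu parental cells the highest for 29.

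**Figure D1:**
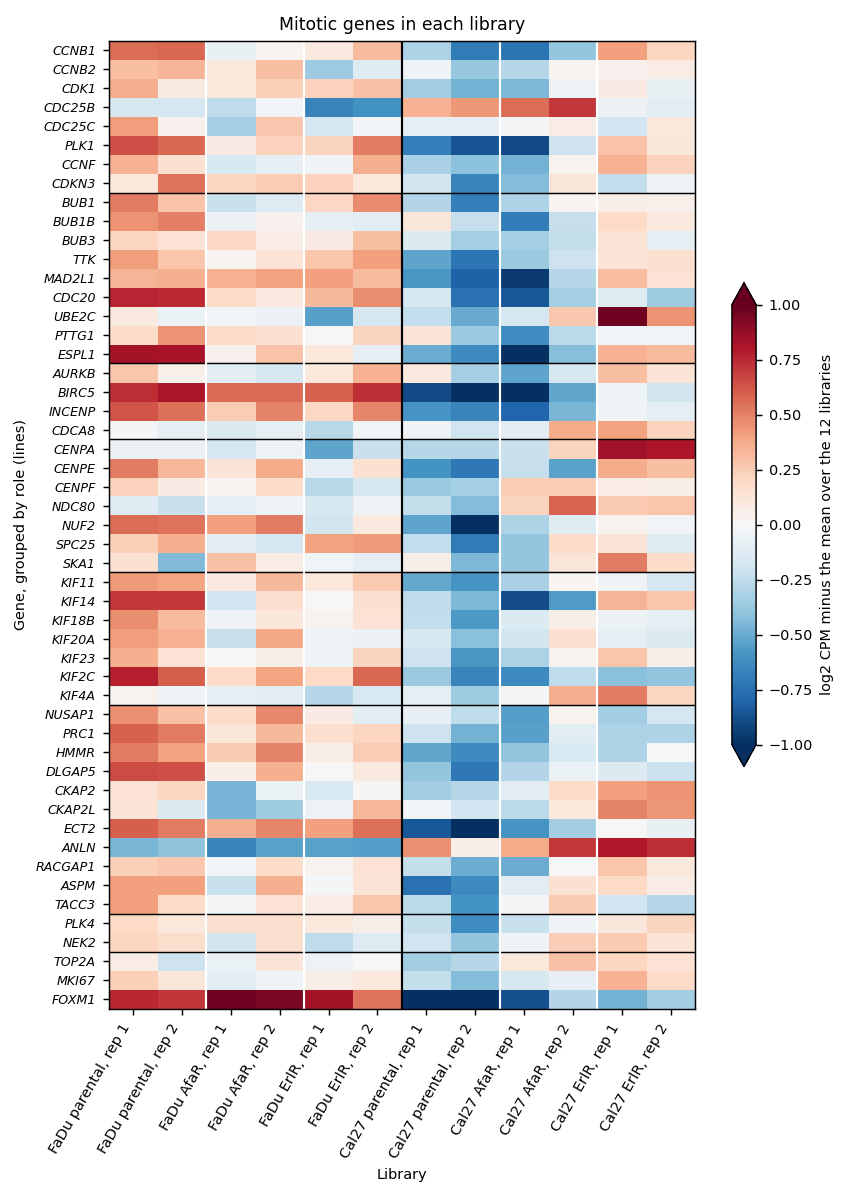
Heat map of the 51 mitotic genes (rows, grouped by role, black lines) in the 12 libraries (columns, white lines between groups and a black line between the cell lines). Colour is log2 CPM minus the gene's mean over the 12 libraries, from blue (lower) to red (higher), with values beyond 1 in size drawn in the end colours. The FaDu parental columns are mostly red and the Cal27 parental columns mostly blue, Cal27 AfaR replicate 1 is lower than replicate 2 in 50 of 51 rows, and CDC25B and ANLN run against the other rows between the lines.

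In the comparisons with parental cells, the genes called (edgeR quasi-likelihood test, Benjamini-Hochberg adjusted p below 0.05 over all genes tested) were lower in FaDu and, with CDC25B as the exception, higher in Cal27. Cal27 ErlR had the most, 28 of 51, and the other 3 models had between 7 and 9. A total of 16 of the 51 genes were called in none of the 4 models, CDK1, AURKB, KIF20A and ANLN among them. Called changes of more than 1 on the log2 scale occurred in 2 of the 51 genes in Cal27 ErlR and in 13.5% of all genes. EdgeR and DESeq2 gave 0 in FaDu AfaR, FaDu ErlR and Cal27 AfaR, where 7.43%, 2.05% and 19.6% of all genes had them by edgeR. The 2 resistant models of a line share their parental libraries, so that their values are given side by side.

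**Figure D2:**
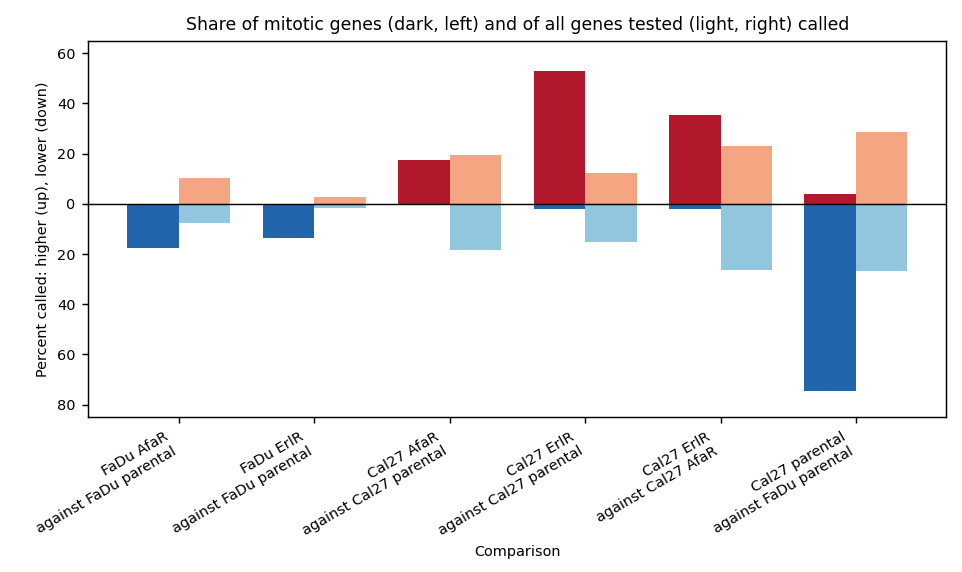
Percent of the 51 mitotic genes (dark bars, left of each pair) and of all genes tested (light bars, right) called higher (red, upward) or lower (blue, downward) in 6 comparisons. In Cal27 ErlR against parental the red bar for the mitotic genes stands well above the 12.3% of all genes called higher, and in Cal27 parental against FaDu parental the blue bar stands well below the 26.8% of all genes called lower, whereas in Cal27 AfaR the red bar is close to the 19.5% of all genes.

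Cal27 ErlR cells carried more mitotic transcripts than Cal27 parental cells. Of the 51 genes, 27 were called higher and 1, CDC25B, lower, which is 54.9% of them, where 27.6% of the 15269 genes tested were called at all, 12.3% higher and 15.3% lower. The median log2 fold change was 0.51, against -0.028 over all genes, and 49 of the 51 values were positive. UBE2C and CENPA changed by more than 1 on the log2 scale, as did 13.5% of all genes, called likewise. Both ErlR libraries lay above both parental libraries for 41 of the genes and below them for 1, where 34.0% and 33.4% of all genes did so.

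Among the regulators of mitotic entry, CCNB1, the cyclin that activates CDK1, had 266 and 203 CPM in Cal27 parental cells and 438 and 383 CPM in Cal27 ErlR, so that the groups did not overlap (log2 fold change 0.78 ± 0.172 (SE), edgeR adjusted p = 0.00983). PLK1, the kinase that promotes mitotic entry and spindle formation, had 155 and 137 CPM in parental cells and 304 and 269 CPM in ErlR, a 1.93-fold rise with both ErlR libraries above both parental ones (0.95 ± 0.207, edgeR adjusted p = 0.00936). CCNF, a substrate adaptor of an SCF ubiquitin ligase, rose by 0.63. CDK1 itself had 96.5 and 88.6 CPM in parental and 130 and 117 CPM in ErlR cells, also without overlap, but did not pass the threshold (0.39 ± 0.153, edgeR adjusted p = 0.0865). CDC25B, a phosphatase that removes the inhibitory phosphates from CDK1, went the other way, with 132 and 140 CPM in parental cells and 99.5 and 96.4 CPM in ErlR (-0.50 ± 0.123, edgeR adjusted p = 0.0159).

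Of the 9 spindle checkpoint and anaphase genes, 5 were higher. UBE2C had 121 and 101 CPM in Cal27 parental cells and 282 and 196 CPM in ErlR, a 2.11-fold rise in which both ErlR libraries lay above the parental ones, although they differed from each other by more than the parental pair (1.08 ± 0.206, edgeR adjusted p = 0.00515). ESPL1, the protease separase that cleaves cohesin at anaphase, had 37.3 and 34.1 CPM in parental and 67.0 and 65.6 CPM in ErlR cells, close pairs that lay far apart (0.87 ± 0.202, edgeR adjusted p = 0.0125). The checkpoint genes MAD2L1, TTK and BUB1 rose by 0.89, 0.74 and 0.51. CDC20 did not pass, with 318 and 214 CPM in parental and 328 and 281 CPM in ErlR cells, and these ranges overlapped (0.17 ± 0.215).

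At the centromere, 5 of 7 genes were higher. CENPA, the histone H3 variant that marks centromeres, had 20.9 CPM in each parental library and 45.5 and 44.5 CPM in the ErlR libraries, a 2.11-fold rise between pairs that hardly varied (1.08 ± 0.169, edgeR adjusted p = 0.00205). CENPE, the kinetochore motor, had 36.8 and 33.9 CPM in parental and 71.8 and 68.7 CPM in ErlR cells (0.97 ± 0.146, edgeR adjusted p = 0.00178). NUF2 and NDC80, subunits of the complex that holds microtubules at the kinetochore, rose by 0.72 and 0.58 and CENPF by 0.40, while SPC25, of the same complex as NUF2, and SKA1 did not pass at 0.44 and 0.51.

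The chromosomal passenger complex was split. BIRC5, which encodes its subunit survivin, had 156 and 121 CPM in parental and 284 and 258 CPM in ErlR cells (0.94 ± 0.196, edgeR adjusted p = 0.00744), and the scaffold INCENP rose by 0.53. The kinase subunit AURKB had 80.1 and 59.2 CPM in parental and 92.4 and 82.3 CPM in ErlR cells, which did not overlap but did not pass (0.30 ± 0.176, edgeR adjusted p = 0.229), and CDCA8 did not pass at 0.41. Among the 7 kinesins, KIF14, KIF4A and KIF23 rose by 0.63, 0.56 and 0.52, and KIF20A, with 98.9 and 82.9 CPM in parental and 104 and 100 CPM in ErlR cells, did not pass (0.14).

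Of the 11 spindle, midzone and cytokinesis genes, 4 were higher. ECT2, the exchange factor that activates RhoA for cytokinesis, had 135 and 116 CPM in parental and 243 and 230 CPM in ErlR cells (0.89 ± 0.139, edgeR adjusted p = 0.00199). ASPM, a spindle pole protein, rose by 0.81, CKAP2 by 0.72 and CKAP2L by 0.54. NUSAP1, which bundles microtubules, was the gene besides CDC25B with a negative value, at -0.11, and did not pass. Both centrosome kinases passed, with PLK4 at 0.56 and NEK2 at 0.46.

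The transcription factor FOXM1, an activator of G2 and M genes, had 92.2 and 82.3 CPM in Cal27 parental cells and 164 and 179 CPM in Cal27 ErlR, without overlap (0.95 ± 0.184, edgeR adjusted p = 0.00547). MKI67, the proliferation marker Ki-67, had 326 and 285 CPM in parental and 489 and 438 CPM in ErlR cells (0.58 ± 0.133, edgeR adjusted p = 0.012). TOP2A, which untangles chromosomes, had 368 and 384 CPM in parental and 543 and 518 CPM in ErlR cells (0.47 ± 0.130, edgeR adjusted p = 0.0259). The 3 genes of this group were each higher in both ErlR libraries.

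The size of the change in Cal27 ErlR depended on the replicates. The median log2 fold change was 0.40 without Cal27 parental replicate 2 and 0.69 without Cal27 parental replicate 1. It was 0.44 without Cal27 ErlR replicate 1 and 0.55 without Cal27 ErlR replicate 2. The 28 genes called kept their sign in each of the 6 fits that left out a library.

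**Figure D3:**
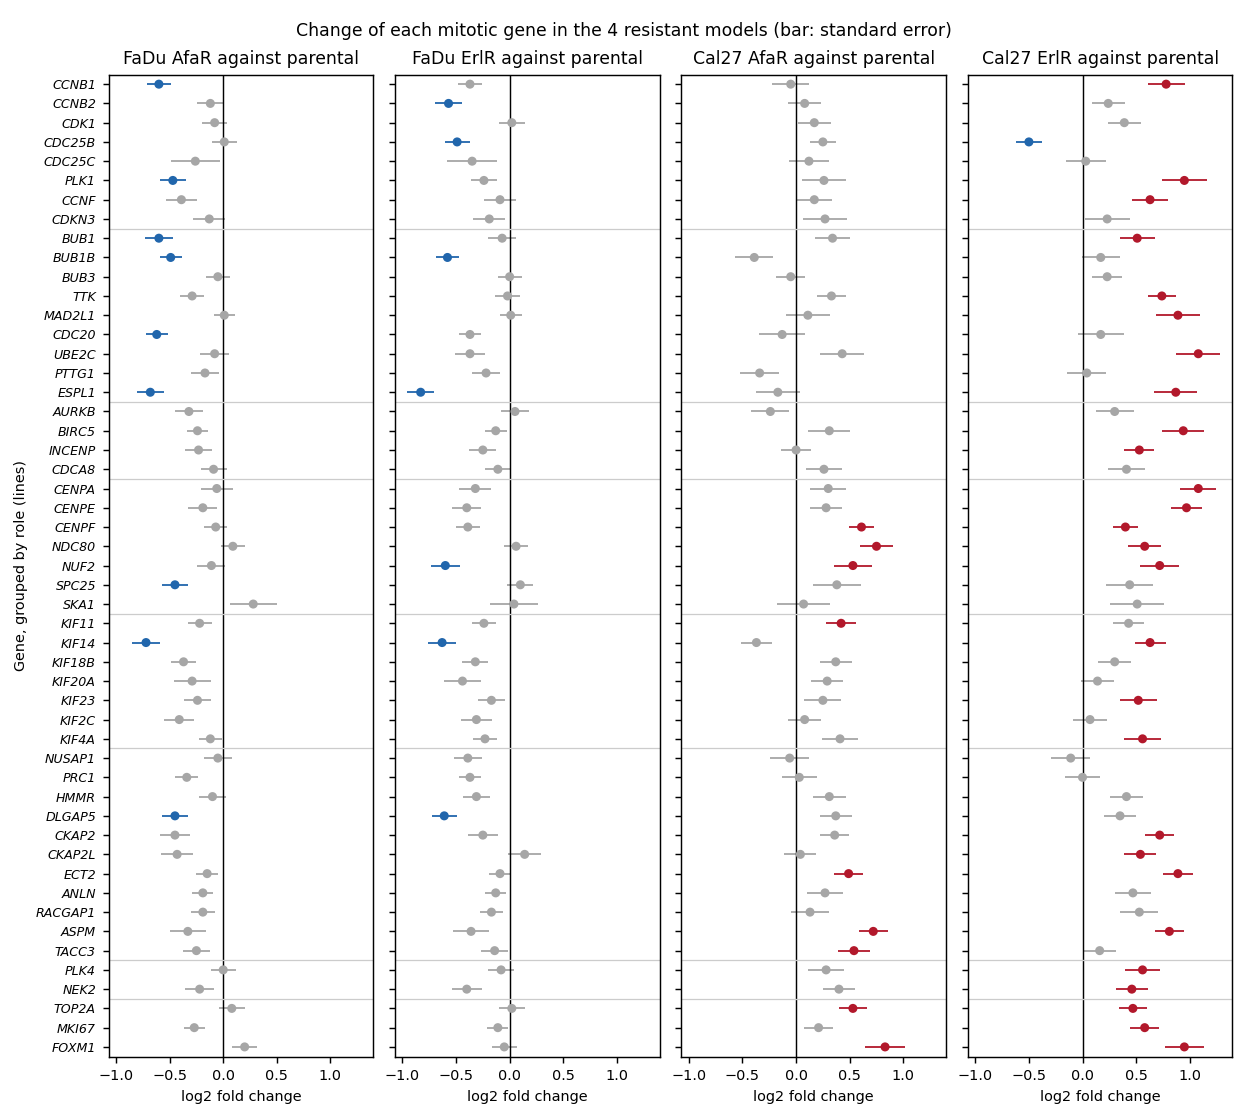
log2 fold change (x axis) of each of the 51 mitotic genes (y axis, grouped by role) in FaDu AfaR, FaDu ErlR, Cal27 AfaR and Cal27 ErlR against parental cells of the line. Points are estimates and bars standard errors, red marks genes called higher, blue genes called lower and grey genes not called. Most points lie left of 0 in the FaDu panels and right of 0 in the Cal27 panels, with the largest values at UBE2C and CENPA in Cal27 ErlR.

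In Cal27 AfaR, 9 of the 51 genes were called, all higher than in Cal27 parental cells. They were 17.6% of the 51, a share below the 37.6% of all genes called and near the 19.5% called higher. The median log2 fold change was 0.27, with 42 positive values. Both AfaR libraries lay above both parental ones for 23 of the genes and below them for 1, where 36.1% and 36.0% of all genes did so. The median difference of 0.34 between the 2 AfaR replicates exceeded the median change from parental cells.

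Of the 9 genes called, 3 were of the centromere and kinetochore, 3 of the spindle, midzone and cytokinesis group and 1 a kinesin, beside TOP2A and FOXM1. FOXM1 had 124 and 186 CPM in Cal27 AfaR against 92.2 and 82.3 CPM in parental cells, with both above the parental pair but far from each other (0.83 ± 0.183, edgeR adjusted p = 0.00671). NDC80 had 74.2 and 95.6 CPM against 53.9 and 47.3 CPM (0.75 ± 0.151, edgeR adjusted p = 0.00426). CENPF, a kinetochore protein of G2 and M, had 219 and 220 CPM against 143 and 146 CPM, the closest replicates of the 9 (0.61 ± 0.117, edgeR adjusted p = 0.00329). ASPM had 98.1 and 117 CPM against 62.8 and 67.7 CPM, also without overlap (0.72 ± 0.136, edgeR adjusted p = 0.00299). TOP2A had 505 and 576 CPM and rose by 0.53. TACC3, NUF2, ECT2 and KIF11 rose by 0.54, 0.53, 0.49 and 0.42.

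None of the 8 entry regulators, 9 checkpoint and anaphase genes or 4 passenger complex genes was called in Cal27 AfaR by edgeR or by DESeq2, and 1 of these 21 genes had an unadjusted p under 0.05 in edgeR. CCNB1 had 199 and 252 CPM and PLK1 133 and 216 CPM in AfaR, each overlapping its range in parental cells. CDC20 had 200 and 284 CPM and AURKB 52.0 and 66.1 CPM, with log2 fold changes of -0.13 and -0.24. UBE2C had 127 and 173 CPM, both above the parental libraries, and did not pass (0.43 ± 0.204, edgeR adjusted p = 0.127). CENPA had 21.8 and 29.7 CPM and MKI67 344 and 363 CPM, also above both parental libraries (0.30 and 0.21). CDK1 had 89.9 and 119 CPM, BIRC5 138 and 204 CPM and KIF20A 97.5 and 124 CPM, each with replicate 1 inside the parental range. Without Cal27 AfaR replicate 2 the median was 0.09, without Cal27 AfaR replicate 1 it was 0.42, and without Cal27 parental replicate 2 it was 0.14. The 9 genes called kept their sign in each fit that left out a library.

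Set directly against Cal27 AfaR, Cal27 ErlR had 18 of the genes higher and 1, CDC25B, lower, or 37.3% of the 51, where 49.6% of all genes were called, 23.2% higher and 26.5% lower. The median log2 difference was 0.22, against -0.029 over all genes. Both ErlR libraries lay above both AfaR libraries for 28 genes and below them for 3, where 38.1% and 38.6% of all genes did so. The median was 0.08 without Cal27 AfaR replicate 1, 0.40 without Cal27 AfaR replicate 2 and 0.13 with upper-quartile scaling. The largest differences were in ESPL1, with 24.3 and 39.3 CPM in AfaR and 67.0 and 65.6 CPM in ErlR (1.03 ± 0.203, edgeR adjusted p = 0.00252), and in KIF14, a kinesin of cytokinesis, with 40.2 and 50.2 CPM against 94.0 and 90.2 CPM (1.00 ± 0.147, edgeR adjusted p = 0.000519). CDC25B had 153 and 169 CPM in AfaR, the highest level of the 6 groups, and 99.5 and 96.4 CPM in ErlR (-0.74 ± 0.123, edgeR adjusted p = 0.000997). Of the passenger complex, AURKB, BIRC5 and INCENP were higher in ErlR, by 0.54, 0.64 and 0.53. The median was 0.17 without Cal27 ErlR replicate 1 and 0.32 without Cal27 ErlR replicate 2. The 19 genes called kept their sign in each fit that left out a library.

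**Figure D4:**
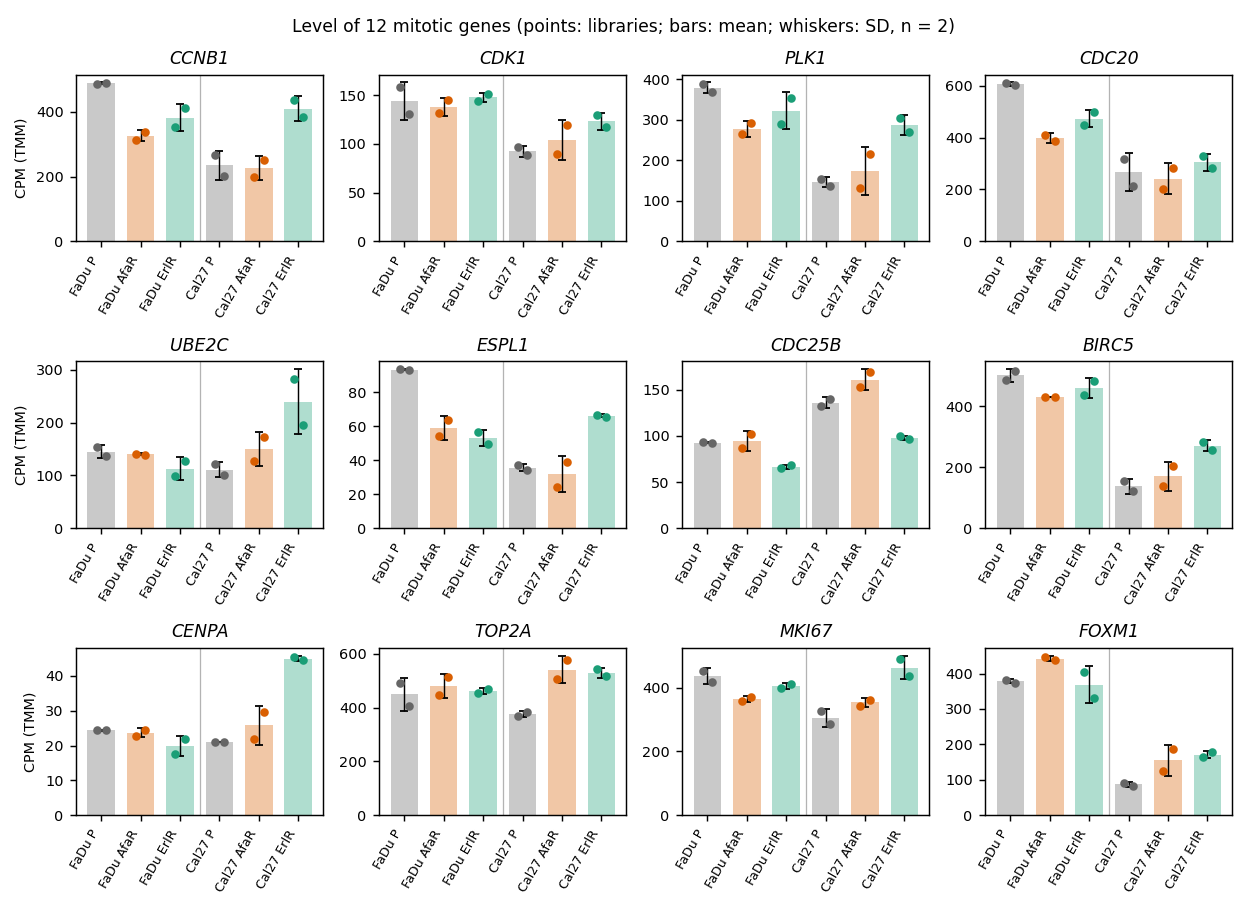
Level of 12 mitotic genes in the 6 groups (P, parental), in CPM scaled with TMM factors, on axes that start at 0. Points are the 2 libraries of a group, bars their mean and whiskers the SD (n = 2), grey for parental, orange for AfaR and green for ErlR. CENPA and UBE2C are highest in Cal27 ErlR, ESPL1, CCNB1 and CDC20 are highest in FaDu parental cells, CDC25B is lower in ErlR than in parental cells of either line, and FOXM1 is lowest in Cal27 parental cells.

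In FaDu AfaR, 9 of the 51 genes were called, all lower than in FaDu parental cells, and 42 did not pass. The share called, 17.6%, was near the background, where 17.9% of the 15092 genes tested were called, 10.4% higher and 7.49% lower. The median log2 fold change was -0.22, against -0.001 over all genes, and 6 of the 51 values were positive. Both AfaR libraries lay below both parental libraries for 31 genes and above them for 2, where 31.2% and 33.8% of all genes did so.

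Of the 9 genes, 6 belonged to the entry and to the checkpoint and anaphase groups. CCNB1 had 486 and 490 CPM in FaDu parental and 314 and 337 CPM in AfaR cells, 1.52-fold lower with no overlap (-0.60 ± 0.110, edgeR adjusted p = 0.0101). CDC20 had 610 and 602 CPM against 411 and 385 CPM (-0.62 ± 0.103, edgeR adjusted p = 0.00723). PLK1 had 389 and 370 CPM against 264 and 292 CPM (-0.47 ± 0.121, edgeR adjusted p = 0.0307). In each of these genes the parental replicates lay close together and above both AfaR libraries. ESPL1 had 93.6 and 93.4 CPM against 54.2 and 64.0 CPM (-0.68 ± 0.125, edgeR adjusted p = 0.0103), and KIF14 had 121 CPM in each parental library against 64.9 and 83.5 CPM (-0.72 ± 0.134, edgeR adjusted p = 0.0105). The checkpoint kinases BUB1 and BUB1B were lower by log2 values of -0.60 and -0.49, and SPC25 and the spindle protein DLGAP5 by -0.45 each.

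The other well-known markers did not pass in FaDu AfaR. CDK1 had 158 and 131 CPM in parental and 132 and 145 CPM in AfaR cells, which overlapped (-0.08). UBE2C had 154 and 137 against 141 and 138 CPM (-0.08), and CENPA 24.5 and 24.4 against 22.7 and 24.6 CPM (-0.06). MKI67, with 453 and 418 CPM against 358 and 372 CPM, lay lower in both AfaR libraries (-0.27). FOXM1 had its highest level of the 6 groups in FaDu AfaR, at 446 and 437 CPM against 383 and 374 CPM in parental cells, and did not pass (0.20). CENPF had 216 and 195 CPM in parental and 187 and 209 CPM in AfaR cells, TOP2A 493 and 407 against 448 and 513 CPM, and KIF20A 148 and 141 against 94.2 and 145 CPM, with log2 fold changes of -0.07, 0.08 and -0.29. In these 3 genes the groups overlapped. AURKB had 90.5 and 77.7 against 69.5 and 66.8 CPM and BIRC5 488 and 516 against 432 CPM in each AfaR library, both lower without overlap (-0.32 and -0.24).

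The FaDu AfaR calls depended on the scaling. The median of the 51 genes was -0.21 without FaDu parental replicate 1 and -0.24 without FaDu parental replicate 2. DESeq2 on all libraries called 12. Scaling on the ERCC spike-ins put the median of all genes at 0.18 in this comparison and turned 90.5% of all calls higher, against 58.0%, and upper-quartile scaling gave 71.7%. With ERCC scaling, 2 of the 51 genes, CDC20 and KIF14, were called lower, and the median of the 51 was -0.04 in place of -0.22. Relative to all genes it was -0.22 on either scale. This is no check, since scaling moves all genes of a comparison nearly alike. Without FaDu AfaR replicate 1 the median was -0.12.

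In FaDu ErlR, 7 genes were called, all lower. They were 13.7% of the 51, where 4.18% of all genes were called, 2.58% higher and 1.6% lower, and the median log2 fold change was -0.24. Both ErlR libraries lay below both parental ones for 31 genes and above them for 1, where 25.9% and 27.7% of all genes did so. ESPL1 had 56.5 and 49.7 CPM in ErlR against 93.6 and 93.4 CPM in parental cells, 1.77-fold lower (-0.83 ± 0.127, edgeR adjusted p = 0.0144). KIF14 had 74.7 and 82.6 CPM against 121 CPM in each parental library (-0.63 ± 0.134, edgeR adjusted p = 0.0369). In both genes the ErlR libraries lay in or near the AfaR range.

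CCNB2, the second B-type cyclin, had 70.5 and 83.0 CPM in FaDu ErlR against 112 and 115 CPM in parental cells (-0.57 ± 0.123, edgeR adjusted p = 0.0377). NUF2 had 28.0 and 34.0 CPM against 47.0 and 46.5 CPM (-0.60 ± 0.133, edgeR adjusted p = 0.0404). CDC25B had 65.2 and 68.1 CPM against 93.0 and 92.5 CPM (-0.49 ± 0.116, edgeR adjusted p = 0.0495). With TMM scaling this phosphatase was thus lower in the ErlR model of either line, close to the threshold in FaDu. With ERCC scaling CDC25B had a log2 fold change of -0.0 in FaDu ErlR and was not called there. In Cal27 ErlR it had -0.47 on that scale and was called. DLGAP5 and BUB1B had log2 fold changes of -0.61 and -0.58. CCNB1, at 352 and 411 CPM, and CDC20, at 449 and 497 CPM, lay below both parental libraries and did not pass, CDC20 with -0.37 ± 0.103 and an edgeR adjusted p of 0.0776. 

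Among the other markers in FaDu ErlR, CDK1 had 144 and 151 CPM, TOP2A 453 and 469 CPM and FOXM1 405 and 331 CPM, all overlapping the parental libraries, with log2 fold changes of 0.02, 0.02 and -0.05. PLK1 had 290 and 355 CPM, BIRC5 439 and 485 CPM and MKI67 399 and 413 CPM, each below both parental libraries, with -0.24, -0.13 and -0.11. AURKB, at 80.4 and 95.3 CPM, spanned the upper parental library. Of the genes with larger values that did not pass, UBE2C had 98.4 and 128 CPM (-0.37), CENPA 17.7 and 21.8 CPM (-0.32), CENPF 152 and 165 CPM (-0.39) and KIF20A 108 and 106 CPM (-0.44), each below both parental libraries.

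These calls in FaDu ErlR depended on the scaling. The median was -0.21 without FaDu parental replicate 1, -0.26 without FaDu parental replicate 2 and -0.32 without FaDu ErlR replicate 2. DESeq2 on all libraries called 11, all lower. Under ERCC scaling the median of all genes was at 0.49 and 98.4% of all calls were higher, against 61.6% with TMM. On that scale the median of the 51 genes turned to 0.24 and 11 were called higher. Relative to all genes the median was -0.24 on either scale, a difference that scaling cannot change. Without FaDu ErlR replicate 1 the median was -0.16.

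FaDu ErlR and FaDu AfaR differed in 6 of the genes, 11.8% of the 51, where 15.7% of all genes were called, 7.65% higher and 8.06% lower in ErlR. BUB1 was higher in ErlR, with 117 and 140 CPM against 86.6 and 92.3 CPM in AfaR (0.53 ± 0.129, edgeR adjusted p = 0.0259), and so were SPC25 (0.56) and CKAP2L (0.57). CDC25B was lower in ErlR, with 65.2 and 68.1 CPM against 87.2 and 102 CPM (-0.50 ± 0.116, edgeR adjusted p = 0.0217), and so were NUF2 (-0.49) and CCNB2 (-0.45). The median over the 51 genes was -0.02, and both ErlR libraries lay above both AfaR ones for 10 genes and below them for 13, where 29.0% and 31.1% of all genes did so. That median was 0.09 without FaDu AfaR replicate 2, -0.06 without FaDu ErlR replicate 2 and 0.05 without FaDu ErlR replicate 1. Its sign thus depended on the replicates. With ERCC scaling, which put the median of all genes at 0.29, the median of the 51 was 0.28 and the 12 genes called were all higher, among 85.5% of all calls higher against 48.7%.

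In Cal27 parental cells 38 of the 51 genes were lower than in FaDu parental cells and 2 were higher, which is 78.4% of them, where 55.6% of 16240 genes were called, 28.7% higher and 26.8% lower. The median log2 difference was -0.64, against 0.037 over all genes, and 16 genes differed by more than 1, as did 31.6% of all genes. Both Cal27 libraries lay below both FaDu libraries for 45 genes and above them for 2, where 38.7% and 40.8% of all genes did so. The 2 lines were grown in different media, which cannot be told apart from the line.

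FOXM1 differed most among the 51, with 383 and 374 CPM in FaDu and 92.2 and 82.3 CPM in Cal27 parental cells, 4.34-fold lower in Cal27 (-2.12 ± 0.172, edgeR adjusted p = 8.61e-07). BIRC5 had 488 and 516 CPM against 156 and 121 CPM (-1.86 ± 0.174, edgeR adjusted p = 2.64e-06). ECT2 had 368 and 347 CPM against 135 and 116 CPM (-1.51 ± 0.125, edgeR adjusted p = 9.88e-07). In each of these the lines were separated by far more than the replicates. ESPL1, PLK1, NUF2, INCENP, KIF2C and DLGAP5 followed at -1.39, -1.38, -1.29, -1.21, -1.20 and -1.20, and CDC20 and CCNB1 at -1.19 and -1.06. MKI67, a marker shared by all cycling cells, differed less, at -0.51, and TOP2A, with 493 and 407 CPM against 368 and 384 CPM, did not pass (-0.26).

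The 2 genes higher in Cal27 were ANLN, the anillin scaffold of the cleavage furrow, with 537 and 410 CPM against 284 and 296 CPM (0.71 ± 0.142, edgeR adjusted p = 0.00106), and CDC25B, with 132 and 140 CPM against 93.0 and 92.5 CPM (0.55 ± 0.113, edgeR adjusted p = 0.00119). Genes that did not pass included AURKB, CENPA, CDCA8 and NDC80, at -0.27, -0.22, -0.06 and -0.16. ERCC scaling put the median of all genes at 0.62, and 82.2% of all calls were then higher, against 51.7%. On that scale 18 of the 51 genes were called lower and 5 higher, and their median was -0.06 in place of -0.64. Relative to all genes the median was -0.68 on either scale, a difference that scaling cannot change.

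The change with resistance was also compared between the lines, as an interaction term in 1 fit over the 12 libraries. For erlotinib resistance, 29 of the 51 genes differed, all with a lower value in FaDu than in Cal27, or 56.9% of them, where 18.6% of all genes were called, 9.8% higher and 8.8% lower in FaDu. The median difference was -0.70 on the log2 scale, with ESPL1 at -1.71, UBE2C at -1.46 and CENPA at -1.41. The median was -0.64 without FaDu parental replicate 1, -0.75 without FaDu parental replicate 2, -0.64 without FaDu ErlR replicate 1 and -0.60 without Cal27 parental replicate 2. For afatinib resistance, 11 genes differed in the same direction, 21.6% of them, where 18.6% of all genes were called, 10.5% higher and 8.0% lower in FaDu. Its median difference was -0.47, and ASPM had the largest value, -1.03. This median was -0.41 without FaDu parental replicate 1, -0.54 without FaDu parental replicate 2 and -0.37 without FaDu AfaR replicate 1. It was -0.36 without Cal27 parental replicate 2, -0.64 without Cal27 AfaR replicate 1 and -0.26 without Cal27 AfaR replicate 2. ERCC scaling left 8 genes called for erlotinib and 3 for afatinib resistance, with 93.0% and 71.6% of all calls then higher in FaDu, against 52.7% and 56.9%. The medians of the 51 were then -0.25 and -0.32. Relative to all genes they were -0.75 and -0.51, differences that scaling leaves nearly unchanged.

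A wider list of 133 other mitotic genes (subunits of the anaphase-promoting complex, entry regulators, other kinetochore proteins, condensins and cohesins, other motors and spindle proteins, and regulators of transcription) held more genes that are not restricted to G2 and M. In Cal27 ErlR, 32 of them were called higher and 3 lower, with a median of 0.29. These are 26.3% of the 133, near the 27.6% of all genes called, but mostly higher, where 12.3% of all genes were called higher and 15.3% lower. CCNA2, the cyclin of S phase and G2, had 80.0 and 62.6 CPM in parental and 179 and 157 CPM in ErlR cells (1.21 ± 0.186, edgeR adjusted p = 0.00187), HAUS6, of the augmin complex, rose by 1.19 and the cohesin subunit STAG1 by 1.12. All 7 condensin and cohesin genes called in Cal27 ErlR, of 19, were higher. In Cal27 AfaR 17 were higher and 16 lower, 24.8% against 37.6% of all genes, with a median of -0.02. The largest changes there were lower values of HAUS4 (-1.28), MIS18A (-1.14) and CENPH (-1.11), the last 2 needed to load or hold CENPA at centromeres.

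In FaDu AfaR, 4 of the 133 genes were higher and 16 lower, 15.0% against 17.9% of all genes, with a median of -0.22. SGO2, which protects cohesin at centromeres, had 26.3 and 23.7 CPM in parental and 12.9 and 13.2 CPM in AfaR cells (-0.95 ± 0.144, edgeR adjusted p = 0.00538), while the constitutive centromere genes CENPC and CENPP rose by 0.76 and 0.75. In FaDu ErlR, 1 was higher and 5 lower, 4.51% against 4.18% of all genes, with a median of -0.09. The genes called lower included SMC2, a condensin subunit, at -0.60 and CDC26, a subunit of the anaphase-promoting complex, at -0.60. Between the parental lines, 16 were higher and 74 lower in Cal27, 67.7% against 55.6% of all genes, with a median of -0.44.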

How the data were processed

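Poly(A) RNA libraries of 12 samples in 6 groups were analysed. Per the labels and the study's methods, the authors trimmed paired-end reads (Trimmomatic 0.36), aligned them to GRCh38 (STAR 2.5.2b) and counted reads per Ensembl gene with featureCounts of Subread 1.5.2, and deposited raw counts. The strand setting is not given in the sources used here. The deposited normalized tables were not used, since the raw counts hold the same libraries.

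Counts of 58051 genes were fitted without the 92 ERCC spike-ins (3.86 to 5.82% of reads) with edgeR 4.0.16 in R 4.3.3 (TMM, filterByExpr, glmQLFit, glmQLFTest, Benjamini-Hochberg adjustment over all genes), in 1 fit per line over 6 libraries (3 residual degrees of freedom, 15092 genes in FaDu and 15269 in Cal27). The parental lines and the interactions were tested in 1 fit over 12 libraries (16240 genes). The common spread over genes (biological coefficient of variation) was 14.5% in the FaDu fit, 15.3% in the Cal27 fit and 15% over 12 libraries. CPM were computed with TMM factors. With 2 replicates, p-values judge a change against the spread between these samples, estimated over all groups of a fit. The test was checked on simulated data.

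The 51 genes, the other lists and the comparisons were chosen with earlier results of these data known. Genes were named by rule: 13 well-known mitotic markers in every comparison, up to 10 of the largest called changes of each comparison, genes that moved against most others, and the 3 largest called changes of the wider list in each resistant model. Not every gene so chosen is reported in the text. Alternatives were DESeq2 1.42.0, upper-quartile and ERCC scaling, no filter, at least 10 counts in every library, a replicate block, fits of 4 or 12 libraries, a log2 fold change also over 1, and leaving out each library. ERCC values relative to all genes were added after the data were seen. Scaling moves all genes of a comparison nearly alike, so these values are no check on it.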

Additional observations from a re-analysis of the deposited data

Results flagged for a closer look

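The change with resistance differed between the cell lines by a test of the difference itself (edgeR interaction term over 12 libraries, adjusted p below 0.05) for 29 of the 51 genes in ErlR and 11 in AfaR, where 18.6% of all genes were called in each. Values are the FaDu log2 fold change minus the Cal27 one, and each was negative.

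In ErlR, the entry regulators CCNB1, CCNB2 and PLK1 had differences of -1.16, -0.82 and -1.21. The checkpoint and anaphase genes were ESPL1 at -1.71, UBE2C at -1.46, MAD2L1 at -0.90, TTK at -0.77 and BUB1B at -0.76. Of the passenger complex, BIRC5 differed by -1.09 and INCENP by -0.79. At the centromere and kinetochore, CENPA differed by -1.41, CENPE by -1.38, NUF2 by -1.34 and CENPF by -0.80. The kinesins were KIF14 at -1.28, KIF4A at -0.81, KIF23 at -0.70, KIF11 at -0.68 and KIF18B at -0.63. Among spindle and cytokinesis genes, ASPM differed by -1.18, CKAP2 by -0.99, ECT2 by -0.99, DLGAP5 by -0.98, HMMR by -0.74 and RACGAP1 by -0.72. The centrosome kinases NEK2 and PLK4 differed by -0.87 and -0.66, FOXM1 by -1.01 and MKI67 by -0.70. These 29 genes kept their sign in each of the 12 fits that left out a library.

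In AfaR, ASPM differed by -1.03, BUB1 by -0.93, DLGAP5 by -0.80, CKAP2 by -0.79, TACC3 by -0.78, KIF18B by -0.72, CENPF by -0.66, NDC80 by -0.64, ECT2 by -0.62, KIF11 by -0.61 and TTK by -0.60. These 11 genes kept their sign in each of the 12 fits that left out a library.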

How the results depend on the processing

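Leaving out 1 library at a time, the number of the 51 genes called ranged from 0 to 10 in FaDu AfaR, 0 to 9 in FaDu ErlR, 4 to 10 in Cal27 AfaR, 11 to 29 in Cal27 ErlR, 0 to 5 between the FaDu models, 6 to 19 between the Cal27 models, 28 to 41 between the parental lines, and 2 to 18 and 16 to 32 in the AfaR and ErlR interactions. A lone library was then assumed to vary like the other groups. Each called gene kept its sign in these fits, and the median between the FaDu models ranged from -0.07 to 0.09 (0.09 without FaDu AfaR replicate 2 and 0.05 without FaDu ErlR replicate 1). With a log2 fold change also over 1, 0 genes were called in FaDu AfaR, FaDu ErlR and Cal27 AfaR, where 7.43%, 2.05% and 19.6% of all genes were. Between the FaDu models the number was 0, against 5.94% of all genes. It was 2 in Cal27 ErlR (13.5% of all genes), 2 between the Cal27 models (27.1%) and 16 between the parental lines (31.6%). In the AfaR and ErlR interactions it was 1 (12.3% of all genes) and 11 (10.9%).

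ERCC scaling gave 2 genes in FaDu AfaR, 11 in FaDu ErlR (all higher, median 0.24), 12 between the FaDu models (median 0.28), 23 between the parental lines, and 3 and 8 in the interactions. Between the parental lines it turned CCNB2 to 0.06, BUB1B to 0.06, BUB3 to 0.16, CENPF to 0.07, NUSAP1 to 0.04, CKAP2 to 0.09, PLK4 to 0.01, NEK2 to 0.10 and MKI67 to 0.07. Without a filter 14 genes were called in each FaDu model, DESeq2 called 11 in FaDu ErlR, and the 12-library fit called 4 there and 3 between the FaDu models. The cause was not tested. The Cal27 numbers against parental stayed within 1.5 times under DESeq2, both other scalings, both other filters and the fits of 4 or 12 libraries.

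Replicate numbers did not pair the samples (correlations of deviations from -0.201 to 0.105). With a replicate block the numbers were 10, 5, 7 and 22 in FaDu AfaR, FaDu ErlR, Cal27 AfaR and Cal27 ErlR, 5 and 15 between the FaDu and the Cal27 models, 40 between the parental lines, and 11 and 28 in the interactions. Each gene had at least 156 counts in every library, and depth was not varied.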
